A study of Saccharomyces cerevisiae with 12 samples.

Results

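The comparison is of DNA content along the chromosomes of eco1 mutant and wild-type budding yeast, 20 min after release from G1 arrest. It uses 4 of the 12 libraries of the study, 2 of the eco1-W216G strain (JG2087) and 2 of the wild-type control strain (w303a). Both strains were grown in YPD to exponential phase, arrested with the mating pheromone α-factor and released by washing in medium with protease. Each strain was sampled at 0, 20 and 40 min, and genomic DNA was sequenced as Nextera XT libraries. The deposited values are log2 ratios of each 20- or 40-min library over a 0-min library in consecutive rows of 1000 bp. Of 12079 nuclear rows, 10123 were used. These lie on 12 of the 16 chromosomes, since I, III, V and IX were left out, as were rows with a ratio of exactly 0 in any column and 7 rows near an end of chromosome XV. Each column was centred on the median of each chromosome, so a value above 0 marks a place with more DNA than the middle of its own chromosome. Rows were averaged in 1026 windows of 10 kb.

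Budding yeast chromosomes are copied from many origins that start in a reproducible order, and cells in early S phase hold more DNA around the origins that started first. In a profile of DNA content such places appear as peaks, and late regions as valleys between them. Eco1 is the acetyltransferase that acetylates the cohesin subunit Smc3 during S phase and so establishes cohesion between sister chromatids. Its human counterpart ESCO2 is mutated in Roberts syndrome.

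The 12 libraries held 5293237 to 10362815 mapped reads, as recovered from the ratios. Counting error alone gives a full 10-kb window of median depth in the 20-min columns an SD of 0.023 to 0.028 (log2). It is larger in windows with fewer rows or lower depth. Nothing in the labels says that the replicates were separate cultures, so p-values measure only the spread between these samples. Chromosome I stood 0.59 and 0.57 above the 12 chromosomes in the eco1 20-min columns, against 0.045 and 0.039 above them in wild type, with smaller excesses in eco1 on III, V and IX. The labels do not say which 0-min library divides each ratio, so a 0-min library is named here by the columns it divides. In 5 of the omitted rows of chromosome XV, the eco1 20- and 40-min libraries held 1 to 4 reads. The 0-min libraries that divide them held 3967 and 3459. These 0-min libraries thus differ there from the eco1 libraries that they divide. The main results are also given as 20-min reads of eco1 against 20-min reads of wild type, without any 0-min library. The eco1 40-min columns, which enter the estimate of the spread, did not resemble each other (Pearson r = -0.28 over 1026 windows), while the eco1 20-min columns did (r = 0.66), as did the wild-type 20-min columns (r = 0.60). Between the strains at 20 min r was 0.059 to 0.25. The windows behind these correlations are neighbours along chromosomes and not independent.

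At the places that were highest in wild type, the eco1 libraries stood close to the median of the chromosome. To keep the choice of windows apart from the values, the highest 10% of windows (103) were chosen in 1 wild-type replicate and read in the other. In the windows chosen in replicate 1, the mean log2 ratio was 0.015 and 0.027 in the eco1 libraries, against 0.14 in wild-type replicate 2, a difference of -0.12. In those chosen in replicate 2, it was 0.012 and 0.018 in eco1, against 0.12 in wild-type replicate 1, a difference of -0.10. Both eco1 libraries lay below the wild-type replicate not used for the choice in 89 of 103 windows (86.4%) and in 91 of 103 (88.3%), against 43.4% and 44.4% of all windows. With 1 wild-type library left to read, there is no test of this difference. Read as 20-min reads alone, the differences were -0.093 and -0.086.

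The remaining windows showed little of this. The lowest 10% chosen in wild-type replicate 1 averaged -0.025 and -0.027 in eco1, against -0.028 in wild-type replicate 2. Those chosen in replicate 2 averaged -0.0017 and -0.0031 in eco1, against -0.024 in wild-type replicate 1, so the low end of the wild-type order was itself weakly shared by the wild-type replicates. In the 10% of windows next below the highest, the means were -0.0020 and 0.0026 in eco1, against 0.025 in wild-type replicate 2, or -0.0061 and -0.0039 in eco1, against 0.026 in wild-type replicate 1.

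**Figure D1:**
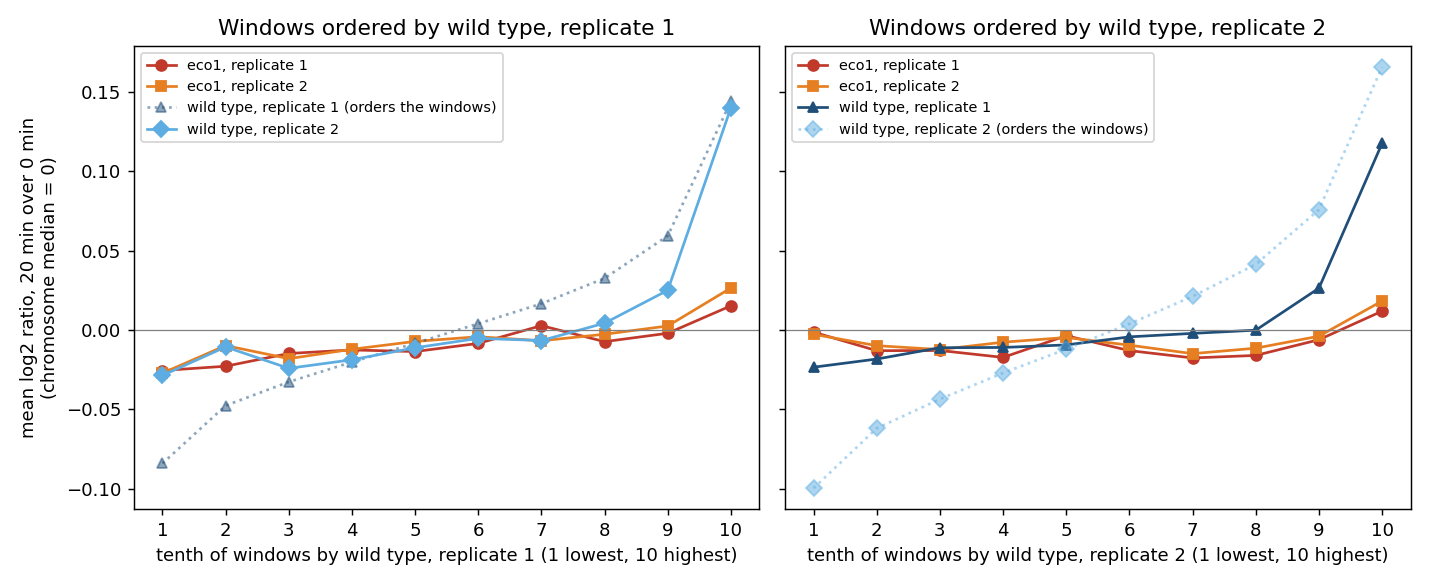
Mean log2 ratio at 20 min over 0 min (vertical axis, chromosome median at 0) in 10 equal classes of the 10-kb windows of 12 chromosomes, from lowest to highest, ordered by wild-type replicate 1 (left) or 2 (right). Red circles and orange squares are the eco1 libraries and blue triangles and diamonds the wild-type libraries. Dotted lines are the library that set the order. In the highest class the other wild-type library reaches 0.14 (left) and 0.12 (right), and the eco1 libraries 0.012 to 0.027.

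The highest windows of the strains were partly the same. There were 42 windows among the highest 10% of both eco1 libraries and 73 among those of both wild-type libraries, and 12 were in both sets, 28.6% of the eco1 windows and 16.4% of the wild-type windows. Of all 1026 windows, 7.12% were in the wild-type set and 4.09% in the eco1 set. Over the 73 wild-type windows the eco1 mean had a median of 0.028 and ran from -0.17 to 0.13, and it was below 0 in 22 of them. The wild-type mean, which chose them, had a median of 0.17. The 12 shared windows lay nearest to HHF1 (histone H4), BOI1, LAG2, SRO7, AVL9, RCE1, PHM7, IML1, NAB6, ATG18, SNU71 and HXT5 (a hexose transporter). Among these, the window of SRO7, which acts in exocytosis, had 0.16 and 0.091 in eco1, against 0.17 and 0.20 in wild type. The window of IML1, a subunit of the SEACIT complex that restrains TORC1, had 0.10 and 0.14 in eco1, against 0.18 and 0.16 in wild type. In 11 of the 12 windows the eco1 mean was the lower, and SNU71, a U1 snRNP gene, was the exception with 0.15 and 0.10 in eco1, against 0.10 and 0.10 in wild type.

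Another 30 windows were among the highest 10% of both eco1 libraries and not of both wild-type libraries, and both wild-type values were below 0 in 9 of them. The highest was the first window of chromosome VII, at YGL262W, with 0.17 and 0.24 in eco1, against -0.074 and -0.030 in wild type. Of the 30 windows, 9 lay within 40 kb of a chromosome end, against 97 of all 1026 windows (9.45%). The window of GAL3, which codes for the galactose sensor of the GAL genes, was high in all the 20-min libraries, at 0.15 and 0.15 in eco1, against 0.12 and 0.088 in wild type.

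At single peaks of the ratio profile, eco1 also stood below wild type. Local maxima of the mean of 5 neighbouring rows, with a prominence of at least 0.1, were chosen in 1 wild-type replicate and read in the other. At 326 peaks of replicate 1 the mean was -0.015 and -0.010 in eco1, against 0.045 in wild-type replicate 2. At 459 peaks of replicate 2 it was -0.038 and -0.031 in eco1, against 0.025 in wild-type replicate 1. Both eco1 libraries were below the other wild-type library at 189 of 326 peaks (58%, against 43% of all positions) and at 273 of 459 (59.5%, against 42.1% of all positions). From the 20-min reads alone the counts were 161 of 326 (49.4%, against 46.6% of all positions) and 264 of 459 (57.5%, against 36.8%), so for the peaks of replicate 1 the share was near that of all positions. The differences from these reads were -0.024 and -0.046, against -0.058 and -0.059 from the ratios, so for the peaks of replicate 1 leaving out the 0-min libraries moved the difference by more than 1.5 times.

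Peaks with a prominence of at least 0.2 stood out more. At 123 such peaks of replicate 1 the mean was -0.0034 and 0.0039 in eco1, against 0.14 in wild-type replicate 2, and eco1 was below at 96 of them (78.0%). At 203 such peaks of replicate 2 it was -0.035 and -0.026 in eco1, against 0.075 in wild-type replicate 1, and eco1 was below at 150 (73.9%). Around the peaks of replicate 1, the elevation in wild-type replicate 2 had fallen to 0.0075 at -8 kb and 0.0073 at +8 kb. A few kb beside the peaks, eco1 was higher than at the peaks themselves. Its values stepped up between 2 and 3 kb from the peaks, at the edge of the 5 rows whose mean chose them. The choosing library, replicate 1, also stepped there, from 0.20 at -2 kb to 0.057 at -3 kb, and the cause was not tested. At +4 kb from the peaks of replicate 1 eco1 had 0.049 and 0.035, against 0.096 in wild-type replicate 2. At -3 kb from the peaks of replicate 2 it had 0.014 and 0.020, against 0.070 in wild-type replicate 1. Rows on both sides of the peaks of replicate 1 were also averaged in classes of distance spaced by 10 kb. In the class around 10 kb the means were 0.00041 and 0.0058 in eco1, against 0.0035 in wild-type replicate 2. In the class around 20 kb they were -0.028 and -0.020 in eco1, against -0.018 in wild-type replicate 2.

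**Figure D2:**
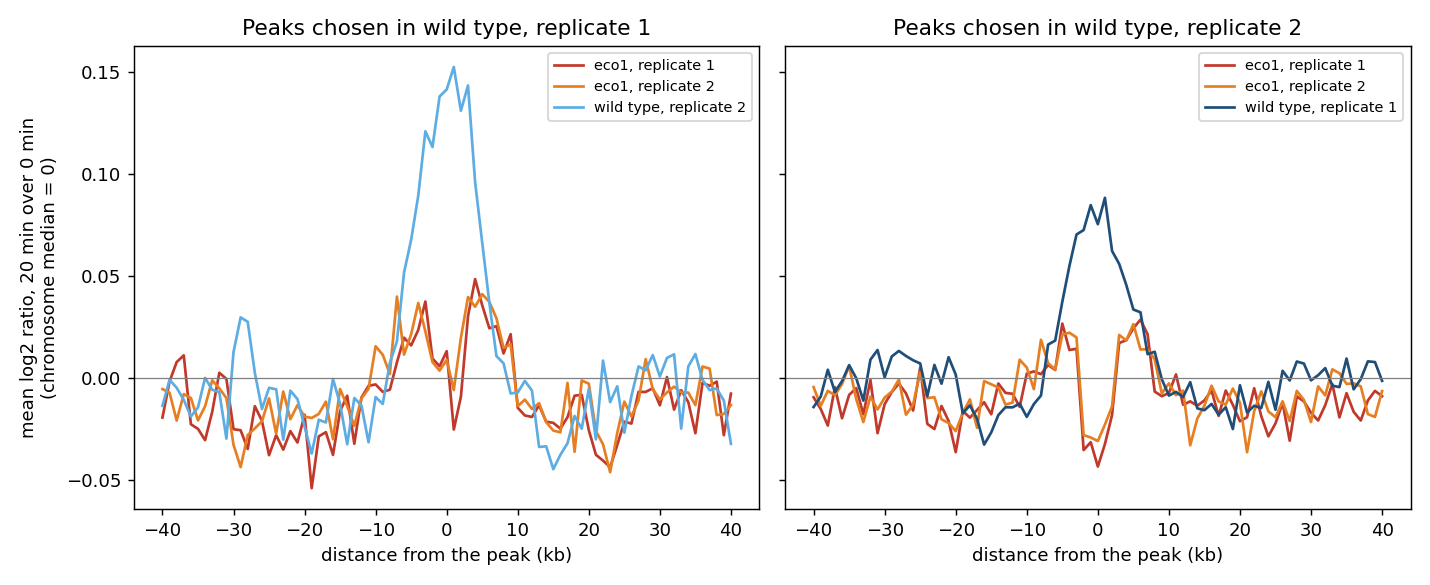
Mean log2 ratio by row (vertical axis, chromosome median at 0) against distance in kb from wild-type peaks of prominence 0.2 or more, chosen in wild-type replicate 1 (left, 123 peaks) or 2 (right, 203 peaks). Red and orange lines are the eco1 libraries, and the blue line is the wild-type library that did not choose the peaks. At the peak the wild-type line is at 0.14 (left) and 0.075 (right), and the eco1 lines are at 0.013 and 0.0090 (left) and at -0.043 and -0.031 (right).

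The 10 highest peaks of the wild-type mean were lower in both eco1 libraries than in both wild-type libraries. These peaks were chosen for their wild-type height, so the size of the differences is a description. Nearest to the highest lies VMS1, which codes for a protein of ribosome quality control, with 0.0032 and 0.00024 in eco1, against 0.42 and 0.28 in wild type. The peak near IFM1, the mitochondrial translation initiation factor 2, had 0.088 and 0.067 in eco1, against 0.33 and 0.34 in wild type. The peak near SKI6, an exosome subunit, had 0.10 and 0.037 in eco1, against 0.33 and 0.34 in wild type. At IFM1 and SKI6 both eco1 values were above 0, and at VMS1 they were at the median of the chromosome.

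At the peak near FLR1, a multidrug transporter gene beside the histone pair HHT1-HHF1, the values were 0.054 and 0.020 in eco1, against 0.31 and 0.35 in wild type. The peak near the tRNA gene YNCJ0026W had -0.076 and -0.049 in eco1, against 0.32 and 0.34 in wild type. The other five lay near YDL007C-A, NCE103 (carbonic anhydrase), PRP39 (a U1 snRNP protein), the tRNA gene YNCJ0019C and PES4. The peak near PRP39 lies in the window named below by YML045W-A and has the same values. The peaks near YDL007C-A and NCE103 lie in the windows named below by YNCD0005C and YNCN0011W. That near VMS1 lies in the window of VMS1, so these peaks and windows are not separate places. The peaks near IFM1 and FLR1 lie in the windows of LAG2 and HHF1, which were among the highest 10% of both eco1 libraries. Over all 10 peaks the difference was -0.44 to -0.26, and both eco1 libraries were below both wild-type libraries at each. In the 20-min reads alone it was -0.35 to -0.19.

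Window by window, no difference passed the threshold in the fit of all 8 ratio columns. Limma called 0 of 1179 windows of 16 chromosomes at a Benjamini-Hochberg adjusted p under 0.05 (0%), and the smallest adjusted p among the 1026 windows of the 12 chromosomes was 0.0843. At an unadjusted p under 0.05 there were 45 higher and 110 lower windows among the 1026. The count depended on the eco1 40-min columns: without either of them limma called 70 windows, 12 higher and 58 lower, where 7.12% of all 1179 windows were called. With the 20-min columns alone it called 90, of which 16 were higher and 74 lower, against a background of 1.78% higher and 7.63% lower among all 1179 windows. That fit has 2 residual degrees of freedom. A fit of the reads of all 12 libraries called 11 windows lower and none higher at 20 min, with 1.02% called among all 1179.

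Without regard to a test, both eco1 libraries were below both wild-type libraries in 318 of 1026 windows (31%) and above both in 230 (22.4%). The difference eco1 minus wild type had a median of -0.0062, and its 5th and 95th percentiles were -0.15 and 0.091. The longer tail was thus on the lower side. The 74 windows called lower from the 20-min columns alone had a median of -0.032 in eco1 and 0.13 in wild type, and wild type was above 0 in 70 of them. The 16 called higher had a median of 0.070 in eco1 and -0.060 in wild type, and the wild-type mean was below 0 in each. Both sets were called on eco1 minus wild type in these same columns. Their values and counts therefore follow in part from the choice and describe it only.

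The 12 named windows with the most negative difference were chosen by size, at most 1 per 30 kb, and the gene nearest the window's centre gives the name. None passed in the fit of all 8 columns. The window of VMS1 (chrIV:550001-560000, sacCer3) had 0.052 and 0.021 in eco1, against 0.28 and 0.24 in wild type. Its difference was -0.22 (SE 0.035, limma adjusted p = 0.0843), and from the 20-min reads in the fit of 12 libraries it was -0.19 (SE 0.026, limma adjusted p = 0.0140). The groups did not overlap, and both eco1 values were above 0.

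The window of HTB1 (chrIV:910001-920000), a gene for histone H2B, had 0.028 and -0.0098 in eco1, against 0.23 and 0.23 in wild type. Its difference was -0.22 (SE 0.052, limma adjusted p = 0.130), and -0.20 from the 20-min reads (SE 0.040, limma adjusted p = 0.0350). In eco1 this place was within 0.03 of the median of the chromosome. The window of BRE1 (chrIV:320001-330000), the ubiquitin ligase of histone H2B, had -0.11 and -0.094 in eco1, against 0.071 and 0.19 in wild type.

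Most of the other lower windows lie at places of low read depth. The median 0-min depth of the 12 lower windows was -0.90 (log2, relative to the median of each chromosome) and that of the 12 higher ones 0.12, against -0.025 over all windows, and its part in the differences was not tested beyond an adjustment of each column for depth. After it 5 of the 12 lower windows had shrunk by more than 1.5 times, to -0.18 at YNCJ0006W and YBL005W-B, -0.12 at YDR210W-B and -0.11 at YNCN0011W and YPL278C, and none of the higher ones had. The widest difference, -0.44 (SE 0.11, limma adjusted p = 0.130), was in the window of YML045W-A (chrXIII:180001-190000), with -0.16 and -0.077 in eco1, against 0.27 and 0.36 in wild type. The window of YLR227W-B (chrXII:590001-600000) had -0.20 and -0.14 in eco1, against 0.14 and 0.21 in wild type, and the strains differed by -0.35 (SE 0.060, limma adjusted p = 0.0848). Both windows kept only 5 of 10 rows, and 7 of the 12 lower windows kept fewer than 10.

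Of the 12 lower windows, 3 are named by tRNA genes. YNCJ0006W (chrX:200001-210000) had -0.13 and -0.058 in eco1, against 0.18 and 0.22 in wild type. YNCD0005C (chrIV:430001-440000) had -0.0082 and 0.019 in eco1, against 0.18 and 0.28 in wild type. YNCN0011W (chrXIV:560001-570000) had -0.083 and 0.089 in eco1, against 0.14 and 0.32 in wild type, the widest spread within a group among the 12.

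The remaining windows were those of YBL005W-B, YDR210W-B, YMR050C and YPL278C. In that order they kept 6, 5, 5 and 9 rows, at a 0-min depth of -1.6, -2.6, -0.69 and -2.9. That of YBL005W-B had -0.27 and -0.20 in eco1, against 0.075 and 0.022 in wild type, and its difference was -0.29 from the ratios and -0.072 from the 20-min reads. In that of YDR210W-B the values were -0.19 and -0.16 in eco1, against 0.13 and -0.024 in wild type. YMR050C had -0.097 and -0.044 in eco1, against 0.096 and 0.21 in wild type. YPL278C, at the edge of chromosome XVI, had -0.16 and -0.17 in eco1, against 0.049 and 0.065 in wild type.

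The 12 named higher windows, chosen by size in the same way, had smaller differences, 0.12 to 0.15. In each, both wild-type values were below 0, and the nearest to 0 was -0.010 in wild-type replicate 1 at ARO80. All 12 kept 10 rows. The window of EFM3 (chrX:660001-670000), a lysine methyltransferase of translation elongation factor 2, had 0.021 and 0.0021 in eco1, against -0.14 and -0.13 in wild type. Its difference was 0.14 (SE 0.035, limma adjusted p = 0.130). The window of FAB1 (chrVI:180001-190000), the phosphatidylinositol 3-phosphate 5-kinase, had -0.015 and 0.067 in eco1, against -0.14 and -0.11 in wild type. These places were near the median in eco1 and below it in wild type.

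The windows above the median in both eco1 libraries included that of MAM3 (chrXV:210001-220000), a membrane protein that affects mitochondrial shape. It had 0.10 and 0.045 in eco1, against -0.063 and -0.098 in wild type, and the strains differed by 0.15 (SE 0.046, limma adjusted p = 0.185). The window of AGA1 (chrXIV:700001-710000), the anchor subunit of a-agglutinin in mating, had 0.10 and 0.075 in eco1, against -0.061 and -0.058 in wild type. That of MKC7, a cell-wall aspartyl protease, had 0.12 and 0.067 in eco1, against -0.019 and -0.040 in wild type. The other seven windows were those of ARO80 (activator of aromatic amino acid catabolism genes), the tRNA gene YNCG0002C, CTI6 (of the Rpd3L histone deacetylase complex), RGC1 (regulator of a glycerol channel), FKS3 (related to glucan synthases), FLO5 (a flocculin) and BIG1 (needed for cell-wall glucan). They had eco1 means of 0.044 to 0.093 and wild-type means of -0.092 to -0.045. The sign of FKS3 was lost in windows of 20 kb, where its difference was -0.035.

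All 24 named windows kept their sign in the 20-min reads without the 0-min libraries, where the lower windows ran from -0.29 to -0.072 and the higher from 0.056 to 0.12. Without the 0-min libraries, 3 lower and 9 higher windows shrank by more than 1.5 times, among them YBL005W-B, YMR050C (to -0.085) and AGA1 (to 0.056). Single wild-type libraries weighed on 4 of the 24. Without wild-type replicate 2, CTI6 went to 0.067, FLO5 to 0.083 and YNCN0011W to -0.13. Without wild-type replicate 1, YDR210W-B went to -0.15 and CTI6 to 0.21, and without eco1 replicate 1 YNCN0011W went to -0.14. In windows of 20 kb, 9 lower and 10 higher windows moved by more than 1.5 times, CTI6 to 0.0062. With each column adjusted for 0-min read depth, 3 of the 1026 windows passed (0.254% of 1179), those of VMS1 (-0.22), YLR227W-B (-0.27) and, among those at chromosome ends that were not to be named, YGL262W (0.33), each with a limma adjusted p of 0.0282. YGL262W is named here after its values were seen.

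**Figure D3:**
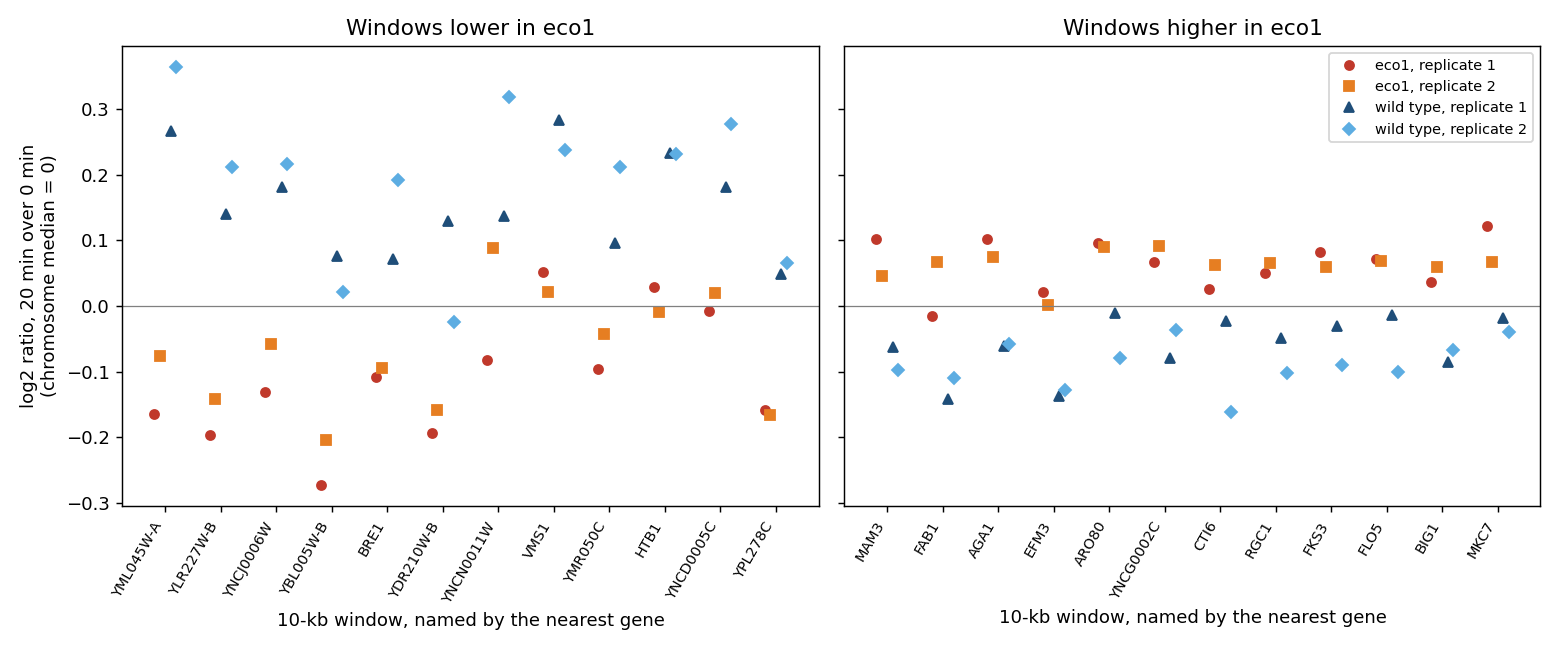
Log2 ratio at 20 min over 0 min (vertical axis, chromosome median at 0) of each library in the 12 named windows with the most negative difference (left) and the 12 with the most positive (right). Red circles and orange squares are eco1, blue triangles and diamonds are wild type. Each symbol is 1 library. In the right panel the wild-type symbols are all below 0. In the left panel the wild-type mean is above 0 in each window, at 0.048 to 0.32.

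**Figure D4:**
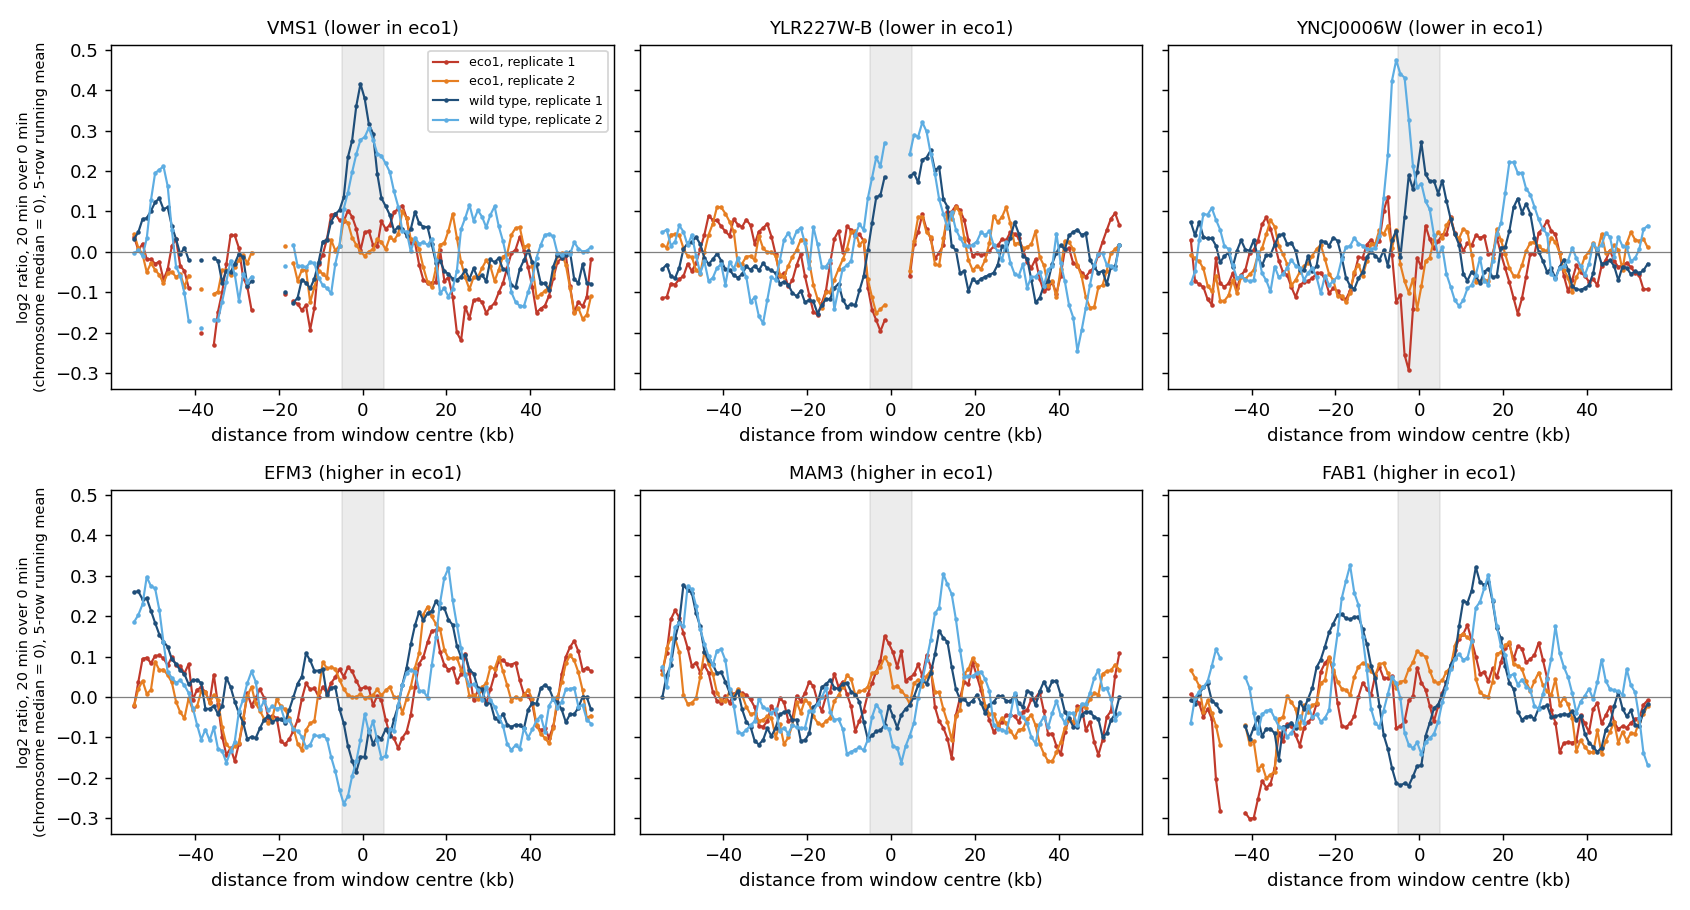
Mean of 5 neighbouring rows of the log2 ratio (vertical axis, chromosome median at 0) against distance in kb from the centre of the 3 lower (top) and 3 higher (bottom) named windows with the smallest adjusted p. Among the higher windows, MAM3 and FAB1 are shown from a tie at a limma adjusted p of 0.185 with YNCG0002C, RGC1 and BIG1. Red and orange lines are eco1, dark and light blue lines wild type. Grey bands mark the windows, and gaps are rows left out. At VMS1 the wild-type lines form a peak in the band, where their window means are 0.28 and 0.24, and the eco1 lines stay near 0. EFM3 and FAB1 lie in wild-type valleys.

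The core histone genes lie in gene pairs. The rows within 2.5 kb of HTA1-HTB1 averaged 0.026 and -0.025 in eco1, against 0.28 and 0.24 in wild type, a difference of -0.26. HTA2-HTB2 had 0.045 and 0.053 in eco1, against 0.16 and 0.25 in wild type, a difference of -0.16. Around HHT1-HHF1 the values were 0.11 and 0.074 in eco1, against 0.28 and 0.25 in wild type, a difference of -0.17. These 3 pairs were lower in both eco1 libraries, and HHT1-HHF1 kept the highest eco1 value of the 4.

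HHT2-HHF2, the other pair for H3 and H4, is not at a wild-type peak. It had -0.10 and -0.11 in eco1, against -0.044 and -0.076 in wild type, and its difference of -0.043 was -0.027 without wild-type replicate 1 and turned to 0.0066 in the 20-min reads alone. In the 10-kb window that holds its rows the difference was 0.028, with both eco1 libraries above both wild-type ones. The 8 genes together averaged 0.011 ± 0.015 in eco1 and 0.17 ± 0.00059 in wild type (SD, n = 2). A two-sided exact permutation test of 2 against 2 libraries cannot give a p below 0.33, and it gave 0.33 for each group of loci here. In the 20-min reads alone the difference of the 8 genes was -0.14.

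Around 231 tRNA genes the 1198 rows averaged -0.033 and -0.019 in eco1, against 0.035 and 0.042 in wild type. The difference of -0.065 compares with -0.013 over all 10123 rows, and with -0.039 for these genes from the 20-min reads alone, which is smaller by more than 1.5 times. Of 270 windows that hold such rows, 110 (40.7%) were lower in eco1 without overlap and 40 (14.8%) higher, against 31% and 22.4% of all windows. The median window difference was -0.019 there and -0.0062 over all windows.

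Around 126 ribosomal protein genes, the values were -0.047 and -0.041 in eco1, against 0.00052 and 0.0032 in wild type. The difference was -0.046, and -0.029 from the 20-min reads alone. Of 175 windows, 65 (37.1%) were lower without overlap and 34 (19.4%) higher, near the 31% and 22.4% of all windows. The difference was -0.072 for rows within 1 kb of a ribosomal protein gene and -0.026 within 5 kb, and for tRNA genes -0.10 within 1 kb. The groups of 2 libraries did not overlap for tRNA or ribosomal protein genes, as they did not over all rows, which averaged -0.0079 and -0.0054 in eco1, against 0.0063 and 0.0063 in wild type.

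Centromeres replicate early in wild-type yeast. Around 12 of them, placed by the gap between the innermost genes of the arms, the 84 rows averaged -0.043 and -0.013 in eco1, against 0.030 and 0.0026 in wild type. The difference was -0.044, and it was -0.0080 in the 20-min reads alone, -0.021 with the filter on outlying rows (MAD), -0.029 without eco1 replicate 1 and -0.081 for rows within 1 kb. In whole windows centred 10 to 20 kb from a centromere the means were 0.0052 and 0.016 in eco1, against 0.081 and 0.069 in wild type, and 13 of 24 windows (54.2%) were lower without overlap and 3 (12.5%) higher, against 31% and 22.4% of all windows. From 20 to 30 kb, the values were -0.016 and -0.0082 in eco1, against 0.026 and 0.024 in wild type. From 30 to 50 kb, 12 of 48 windows (25%) were lower without overlap, a smaller share than over all windows.

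Rows within 30 kb of a chromosome end averaged -0.0015 and 0.0068 in eco1, against 0.014 and 0.033 in wild type. The difference was -0.021, and -0.012 without wild-type replicate 2. It changed sign, to 0.0084 and 0.010, when the columns were adjusted for read depth or coding share. Among the classes of distance from an end, the share of lower windows was highest at 10 to 20 kb, with -0.048 and -0.027 in eco1, against 0.020 and 0.032 in wild type, and 11 of 21 windows (52.4%) lower without overlap, against 31% of all windows. In the rDNA of chromosome XII only 3 rows were kept. They averaged -0.21 and -0.31 in eco1, against 0.041 and 0.14 in wild type, which may be read only as a description of 3 rows of repeated sequence.

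**Figure D5:**
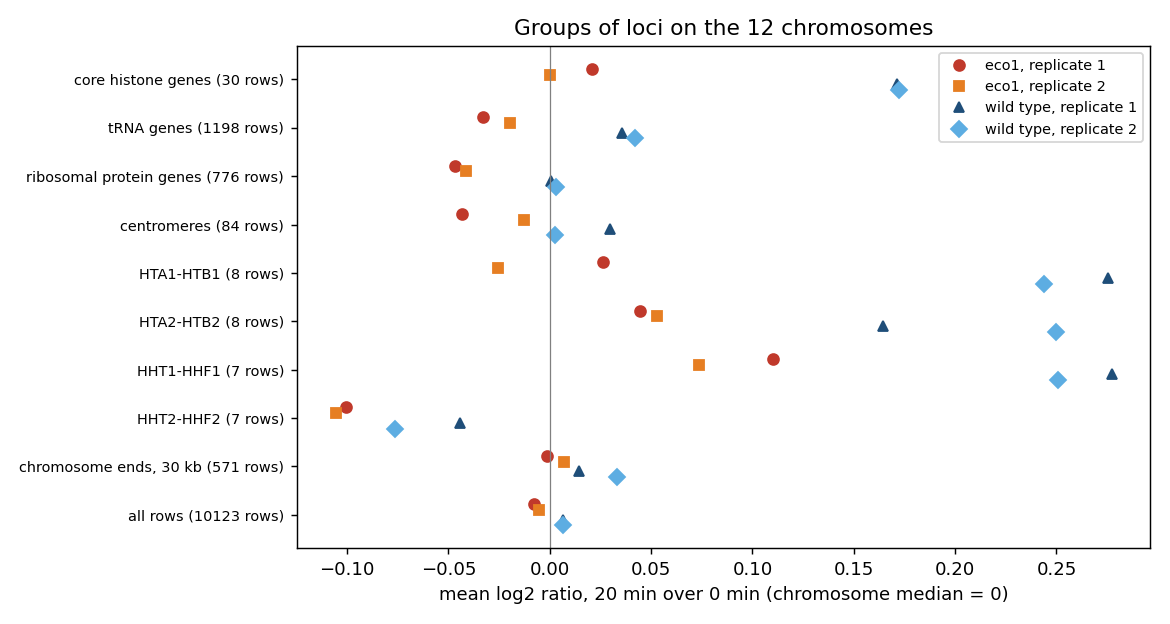
Mean log2 ratio at 20 min over 0 min (horizontal axis, chromosome median at 0) of the rows near each group of loci, by library. Red circles and orange squares are eco1, above the blue triangles and diamonds of wild type. The number of rows is given beside each name. HTA1-HTB1, HTA2-HTB2 and HHT1-HHF1 are at 0.16 to 0.28 in wild type and at -0.025 to 0.11 in eco1, while all rows together lie within 0.01 of 0.

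The SD of the ratio profile was smaller in eco1 than in wild type on most chromosomes. Over 1026 windows the SD of the ratio was 0.058 and 0.053 in eco1, against 0.063 and 0.074 in wild type, a difference of -0.013 (exact permutation p = 0.33). Without wild-type replicate 2 it was -0.0076, and in the 20-min reads alone, where it is the SD of read depth, it turned to 0.018. The mean SD was lower in eco1 on 11 of 12 chromosomes, and both eco1 values were below both wild-type values on 7. On chromosome X the SD was 0.053 and 0.053 in eco1, against 0.077 and 0.081 in wild type. Chromosome VIII was the exception, with 0.060 and 0.061 in eco1, against 0.051 and 0.066 in wild type, and it was also the only chromosome with more higher windows (16) than lower ones (14) without overlap.

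Lower windows that did not overlap came in runs of at most 4. The run with the most negative mean lay on chromosome XIII from MSN2 to YMR050C (340001 to 380000), at -0.044 and -0.048 in eco1, against 0.093 and 0.090 in wild type. Others lay on VII from UGA1 to TIM21, on XII from YNCL0035C to YCS4, on X from FAR1 to GLG2 and on IV from WIP1 to UBA2. The single run of 4 higher windows lay on VIII from BIG1 to ORC6, a subunit of the origin recognition complex, at 0.012 and 0.0074 in eco1, against -0.046 and -0.055 in wild type.

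Read depth and coding content moved with the difference. Across 1026 windows the difference correlated with the 0-min read depth (r = 0.25) and with the share of the window in protein-coding genes (r = 0.25), as a description, since windows share libraries and base composition. The eco1 20-min columns correlated with the depth of the wild-type 0-min libraries at r = 0.22 and 0.12, and the wild-type 20-min columns with the depth of the eco1 0-min libraries at r = -0.039 and -0.19. Over the 965 windows at least 30 kb from an end, r was 0.40 and 0.29 for eco1 and -0.14 and -0.20 for wild type. The highest 10% of windows of wild-type replicate 1 held 67.4% coding sequence and those of replicate 2 66.4%, against 73.9% over all windows. Their mean 0-min depth was -0.25 and -0.40 (log2), against a mean of -0.12 over all windows. Adjusted for depth, the difference of the highest 10% was -0.10 and -0.097 for the choice in replicate 1 and 2, and adjusted for coding share it was -0.11 and -0.093.

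The 40-min ratios share their 0-min libraries with the 20-min ratios, and the named windows were chosen at 20 min, so their 40-min values are given as a description. The lower windows differed by -0.35 to -0.019 and the higher ones by 0.039 to 0.15, as means of eco1 40-min libraries that did not resemble each other. The window of HTB1 had 0.10 and -0.078 in eco1, against 0.050 and 0.024 in wild type at 40 min, and that of YDR210W-B 0.13 and -0.28 in eco1, against -0.0031 and 0.060 in wild type. In both, eco1 replicate 1 was above both wild-type libraries and eco1 replicate 2 below them. Limma called none of the 1179 windows at 40 min (0%), with a smallest adjusted p of 0.278 among the 1026 and 44 higher and 95 lower windows of these at an unadjusted p under 0.05. The 103 windows chosen in wild-type replicate 1 at 20 min averaged 0.037 and -0.031 in eco1, against 0.046 and 0.079 in wild type at 40 min. HTA1-HTB1 then had 0.13 and -0.092 in eco1, against 0.070 and 0.043 in wild type, with the eco1 libraries on either side of both wild-type ones.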

How the data were processed

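Genomic DNA of eco1-W216G and wild-type yeast was sequenced, with 2 libraries in each group. The tools named per the submitters' processing notes are CASAVA 1.8.2 and Bowtie, with the build sacCer3 and no roles given. The authors deposited 8 ratio columns in log2 units for 12165 rows of 1000 bp. The deposited smooth columns, taken as a score, were not used. From the values, a ratio is the log2 RPM with a pseudocount of 1 in a 20- or 40-min library minus that in the 0-min library of its strain and replicate. Whole reads of all 12 libraries were recovered on that basis; those of very deep rows such as the rDNA are not unique and were not used.

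Of 12079 nuclear rows, 449 with a ratio of exactly 0 and 7 rows of chromosome XV were left out. Columns were centred on each chromosome's median and averaged in 10-kb windows of at least 5 rows. Limma 3.58.1 in R 4.3.3 was fitted to 8 columns in 4 groups, with Benjamini-Hochberg adjustment over 1179 windows and a threshold of 0.05. It was tested on simulated data. Lists used rows within 2.5 kb of a gene in RefSeq R64. Peaks were local maxima of the mean of 5 kept rows. Named were windows past the threshold, the 12 most positive and 12 most negative differences without overlap between groups (at most 1 per 30 kb, not within 10 kb of an end or in the rDNA), the 10 highest wild-type peaks and the histone pairs. Members, lists and tests were chosen with earlier results of these data known. The comparison of the highest 10% of windows and the adjustments for depth and coding share were added after seeing the data. Replication origins and Ty elements were not analysed here, since the annotation used does not list them. Whether the named windows hold Ty elements was therefore not examined.

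Alternatives were other centring, equal SD, a MAD filter, no chromosome ends or rDNA, 20-min reads without 0-min libraries, other window sizes, the 20-min columns alone, a replicate block and each column left out. Same-numbered 20-min libraries did not deviate together (r = 0.030), so numbers were not used to pair them.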

Additional observations from a re-analysis of the deposited data

Results flagged for a closer look

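In 18 named windows and 4 groups of loci, both eco1 libraries lay on one side of the chromosome median and both wild-type libraries on the other. Of all 1026 windows, 98 had eco1 below and wild type above, and 95 the reverse. The means over all rows also had opposite signs. The lower windows were those of YML045W-A (-0.44), YLR227W-B (-0.35), YNCJ0006W (-0.29), YBL005W-B (-0.29), BRE1 (-0.23), YMR050C (-0.22) and YPL278C (-0.22), as eco1 minus wild type on the log2 scale. The higher ones were those of MAM3 (0.15), AGA1 (0.15), EFM3 (0.14), ARO80 (0.14), YNCG0002C (0.14), CTI6 (0.14), RGC1 (0.13), FKS3 (0.13), FLO5 (0.13), BIG1 (0.12) and MKC7 (0.12). Without wild-type replicate 2, CTI6 was at 0.067 and FLO5 at 0.083. None of these passed limma's adjusted threshold in the fit of 8 columns.

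The groups of loci were tRNA genes (-0.065), ribosomal protein genes (-0.046), centromeres (-0.044) and the 3 rDNA rows (-0.35). For these the difference could not pass a test of 2 against 2 libraries.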

How the results depend on the processing

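Of 1026 windows, 0 were called in the fit of 8 columns, and 0 with a replicate block, where the smallest limma adjusted p was 0.133. The count was 3 at an adjusted p under 0.10, 47 with centring on the genome-wide median, 1 with equal SD, 3 adjusted for read depth and 90 from the 20-min columns alone. Leaving out single columns gave 0 to 70, with 70 reached without either eco1 40-min replicate. The named windows gave 426 values on the same side of the threshold as in the fit of 8 columns, 70 that newly passed and 1 reversed, FKS3 in 20-kb windows (-0.035). With the MAD filter only 18 of the named windows could be read, and those of YML045W-A and YLR227W-B were not among them. Under that filter YNCJ0006W moved to -0.11 and FLO5 to 0.074. HHT2-HHF2 turned to 0.018 with the MAD filter, 0.0066 in 20-min reads, 0.041 adjusted for depth, 1.2e-07 with rows within 1 kb and 0.0067 within 5 kb. Chromosome ends turned to 0.0084 and 0.010 adjusted for depth and coding share. The profile SD difference turned to 0.018 in 20-min reads, where it is the SD of read depth and no longer of a ratio.

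For peaks chosen in replicate 1 and 2, the difference was -0.034 and -0.038 at prominence 0.05, -0.14 and -0.11 at 0.2, -0.075 and -0.067 with a mean of 11 rows, and -0.024 and -0.046 in 20-min reads. For the highest 10% of windows chosen in replicate 1 and 2, it was -0.11 and -0.091 with the chromosome mean, -0.14 and -0.12 with the genome-wide median, -0.10 and -0.096 with the MAD filter, -0.093 and -0.086 in 20-min reads, -0.10 and -0.097 adjusted for depth, -0.11 and -0.093 adjusted for coding share, -0.092 and -0.097 with equal SD, and -0.070 and -0.068 in 20-kb windows. For replicate 2 it was also -0.11 without ends or rDNA and -0.12 in 5-kb windows. For peaks and for the highest 10% of windows, direction was kept in each of these settings, and the cause of the moves was not tested. Counting error alone gives a full 10-kb window of median depth in a 20-min column an SD of 0.023 to 0.028. It is larger in windows with fewer rows or lower depth, as many of the named lower windows are. The rDNA was not read from recovered reads.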
